A study of Mus musculus with 18 samples.

Results

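The Toll-like receptors and their trafficking chaperone Unc93b1 were followed in 3 progenitor populations of mouse bone marrow, from which dendritic cells (DCs) arise. The 10 genes were taken by symbol from the deposited expression tables. They were Tlr1, Tlr2, Tlr3, Tlr4, Tlr6, Tlr7, Tlr9, Tlr12, Tlr13 and Unc93b1. All 10 were listed in each table, among 19710 genes in the tables of multipotent progenitors (MPPs) and CD115- common DC progenitors (CDPs) and 18378 genes in the table of common lymphoid progenitors (CLPs). In the GRCm38 assembly, as RefSeq gives it, Tlr9 (gene ID 81897) lies at chr9:106222598-106226876, Tlr12 (384059) at chr4:128615446-128618619, Unc93b1 (54445) at chr19:3935158-3949340 and Tlr3 at chr8:45395665-45411075, and gene-level values span all exons of a gene. RNA-seq was performed on 18 libraries, with 3 biological repeats of WT and 3 of KO for each population.

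WT mice were Trim33 fl/fl, and KO mice were Trim33 fl/fl Cre-ERT2, in which tamoxifen activates a Cre recombinase that deletes part of Trim33 throughout the body. All mice were C57BL/6, 6 to 8 weeks old, and all carried the floxed allele. Both genotypes received tamoxifen, at 2 mg a day for 5 days, and the marrow was taken 7 days later. Whether a library came from 1 mouse or from several is not given in the sources used here. Only the KO mice carried Cre, so the presence of Cre and the loss of Trim33 cannot be told apart. TRIM33 is a nuclear E3 ubiquitin ligase that binds modified chromatin. MPPs were sorted as Lin- Sca-1+ CD117+ CD34+ FLT3+ cells, CD115- CDPs as Lin- CD11c- FLT3+ CD117int CD115- CD127- cells and CLPs as Lin- CD11c- Sca-1+ CD117+ CD127+ FLT3+ cells.

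Toll-like receptors recognize conserved molecules of microbes. TLR1, TLR2, TLR4 and TLR6 act mainly at the cell surface, where TLR2 pairs with TLR1 or TLR6 to bind bacterial lipopeptides and TLR4 binds lipopolysaccharide. TLR3, TLR7, TLR9 and TLR13 act in endosomes, where they bind double-stranded RNA, single-stranded RNA, unmethylated CpG DNA and bacterial ribosomal RNA, and TLR12 binds the profilin of protozoan parasites. UNC93B1 is the membrane protein that carries the endosomal receptors out of the endoplasmic reticulum, and plasmacytoid DCs (pDCs) are known for their use of TLR7 and TLR9 to induce type I interferon.

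Depth estimated from the steps of the FPKM values (fragments per kilobase of transcript, scaled to mapped reads) ranged from 19.3 to 21.3 M reads a library. One read on a member was worth between 0.0113 FPKM, for Tlr3, and 0.0221 FPKM, for Unc93b1. Gene-level Trim33 ranges overlapped between the genotypes, with 8.78 to 10.42 FPKM in WT and 4.80 to 11.66 FPKM in KO MPPs, 8.27 to 15.23 and 4.03 to 9.64 FPKM in CD115- CDPs, and 7.01 to 12.36 and 5.60 to 7.66 FPKM in CLPs. Within each replicate number KO was below WT in CD115- CDPs and CLPs, but not in MPPs. With replicate number as a block, the log2 fold change was -0.74 in CD115- CDPs (limma adjusted p = 0.026) and -0.37 in CLPs (limma adjusted p = 0.073). Transcripts that lack the deleted exons could still count towards these values. Exon-level values were not used, so the extent of the deletion was not tested, and KO below means the libraries labelled KO. Flt3 was at 147 to 330 FPKM in all 18 libraries and Kit was highest in WT MPPs at 71.6 to 74.8 FPKM. Il7r, which encodes CD127, was at 32.6 to 63.0 FPKM in CLPs. Csf1r, which encodes CD115, was not absent from the CD115- CDPs and reached 39.1 to 137 FPKM in their WT libraries. In CD115- CDPs the libraries numbered 3 stood apart: 7 neutrophil genes summed to 3421 FPKM in the WT and 3081 FPKM in the KO library, against 465 to 852 FPKM in the other 4. In WT replicate 3 of that population, 7 monocyte and macrophage genes summed to 1839 FPKM, against 188 and 251 FPKM in the other WT libraries.

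Levels in WT progenitors were compared first, on the FPKM scale, which is per transcript length. Unc93b1 was the highest of the 10 genes in each population, and the receptors with the highest means were Tlr2 in MPPs and CD115- CDPs and Tlr7 in CLPs. Unc93b1 reached 90.3, 83.0 and 91.2 FPKM in the MPP libraries, 244, 182 and 364 FPKM in CD115- CDPs and 301, 377 and 305 FPKM in CLPs. Every WT CD115- CDP and CLP library was above every WT MPP library, while the CD115- CDP and CLP libraries overlapped. Tlr9 was low in MPPs (0.81, 0.65 and 0.57 FPKM), higher in CD115- CDPs (5.10, 5.14 and 6.86 FPKM) and highest in CLPs (11.5, 9.21 and 8.80 FPKM), so the 3 populations did not overlap. Tlr12 was at 1.58, 1.45 and 1.60 FPKM in MPPs and at 8.70, 8.49 and 7.23 FPKM in CLPs, and its CD115- CDP libraries were spread over 1.79, 1.03 and 7.21 FPKM. Tlr2 followed another order, with 7.30, 7.64 and 6.55 FPKM in MPPs, 20.0, 24.5 and 13.4 FPKM in CD115- CDPs and 3.60, 4.20 and 3.58 FPKM in CLPs. Tlr7 overlapped between MPPs (5.56, 6.07 and 6.68 FPKM) and CD115- CDPs (5.40, 9.23 and 2.76 FPKM) and was at 13.6, 7.74 and 9.19 FPKM in CLPs.

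The order of the receptor means in WT MPPs was Tlr2 (7.16 ± 0.558 FPKM, SD, n = 3), Tlr7 (6.10 ± 0.561), Tlr12 (1.54 ± 0.0814), Tlr4 (1.02 ± 0.0404), Tlr13 (0.900 ± 0.121), Tlr9 (0.677 ± 0.122), Tlr6 (0.657 ± 0.0737), Tlr3 (0.270 ± 0.0600) and Tlr1 (0.263 ± 0.0321). Of the neighbours in that order, Tlr2 and Tlr7, Tlr4 and Tlr13, Tlr13 and Tlr9, Tlr9 and Tlr6, and Tlr3 and Tlr1 had overlapping libraries. In WT CLPs Tlr7 (10.2 ± 3.07 FPKM) overlapped both Tlr9 (9.82 ± 1.43) and Tlr12 (8.14 ± 0.795), while every Tlr9 library was above every Tlr12 library, the lowest Tlr9 value at 8.80 and the highest Tlr12 value at 8.70 FPKM. They were followed by Tlr2 (3.79 ± 0.352), and the other 5 receptors had means of 0.157 to 0.550 FPKM. In WT CD115- CDPs Tlr2 (19.3 ± 5.56 FPKM) was above Tlr7 (5.80 ± 3.25) and Tlr9 (5.70 ± 1.005), which did not differ beyond their spread, and above Tlr12 (3.34 ± 3.37). The remaining receptors of that population had means of 0.177 to 0.920 FPKM.

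Tests across populations used limma on log2(FPKM + 1) over the 9 WT libraries, with a call at an adjusted p of at most 0.05 and a log2 difference of at least 1 in size. Of the 7 members that passed the filter of a mean of 0.5 FPKM, 3 were called higher in CD115- CDPs than in MPPs, where 6.98% of all genes tested were called in either direction. They were Tlr9 (log2 difference 1.99, SE 0.154, adjusted p = 6.3e-05), Unc93b1 (1.51, SE 0.220, adjusted p = 0.0017) and Tlr2 (1.28, SE 0.197, adjusted p = 0.0022). In CLPs against MPPs 3 members were also called higher, beside 8.7% of all genes. Tlr9 was 2.68 higher (SE 0.154, adjusted p = 1.1e-05), Unc93b1 1.87 higher (SE 0.220, adjusted p = 0.00044) and Tlr12 1.84 higher (SE 0.426, adjusted p = 0.014) on the log2 scale. Between CLPs and CD115- CDPs, where 3.0% of genes were called, only Tlr2 was, at 2.05 lower in CLPs (log2 difference -2.05, SE 0.197, adjusted p = 0.00081). Without CD115- CDP WT replicate 3 Tlr12 was called too, at 1.94 higher in CLPs (SE 0.156), and without WT replicate 2 Tlr7 was, at 1.16 higher (SE 0.274). Tlr4 was lower in both later populations than in MPPs (log2 differences -0.60 and -0.61, SE 0.117 each, adjusted p = 0.0077 and 0.0056). Both differences stayed short of the fold needed for a call on the log2(FPKM + 1) scale, which understates changes of low genes. Mean WT Tlr4 was 1.02 FPKM for MPPs, against 0.34 FPKM for CD115- CDPs and 0.32 FPKM for CLPs. Tlr4 thus passed the filter of a mean of 0.5 FPKM through its MPP libraries, a selection that favours lower values in the other populations. These comparisons share their libraries, and each population is a table of its own, so table and population cannot be told apart.

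**Figure D1:**
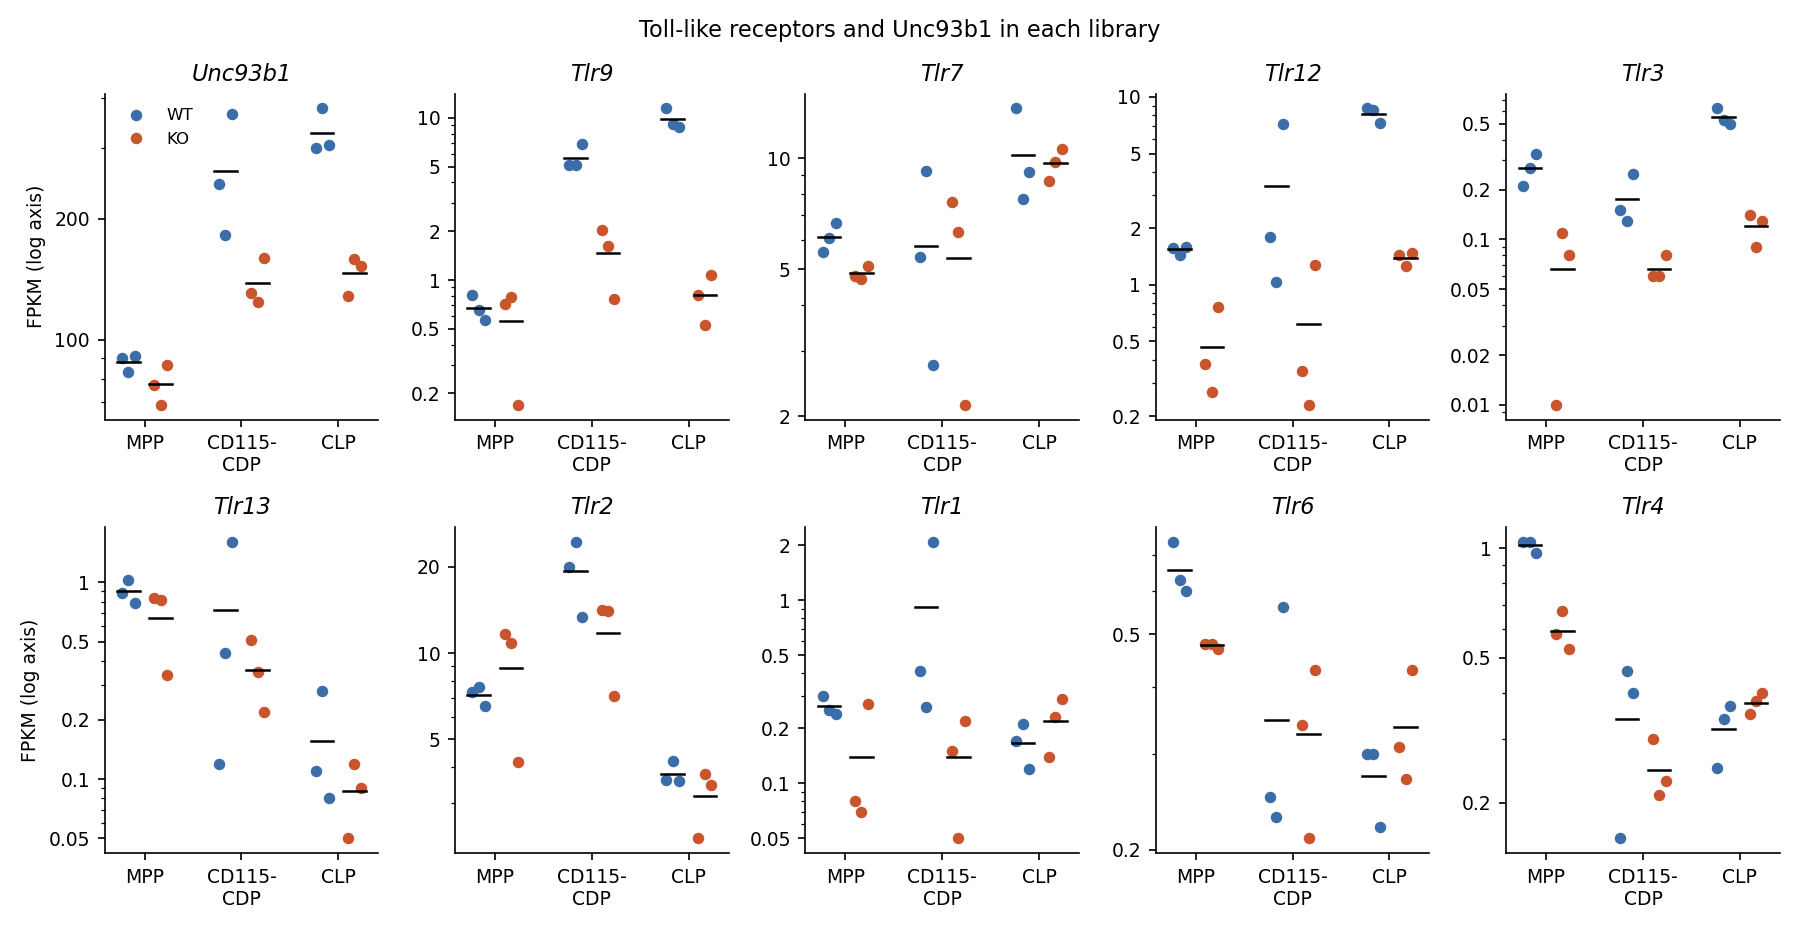
FPKM of each of the 10 genes in each of the 18 libraries, with FPKM on a log axis that differs between panels, WT libraries in blue, KO libraries in orange and black lines for the means of 3. Tlr9, Tlr12, Tlr3 and Unc93b1 have every KO library below every WT library in CLPs, while the Tlr7 libraries of CLPs overlap between 8.69 and 10.6 FPKM.

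In CLPs the comparison of KO with WT asks how the genes differ between the genotypes in the population in which Tlr9, Tlr12 and Unc93b1 stood highest. Tlr9, the receptor for CpG DNA, was at 11.5, 9.21 and 8.80 FPKM in WT and at 0.81, 0.53 and 1.07 FPKM in KO. The groups did not overlap, and the ratio of the means was 12.2. Between 614 and 758 estimated reads lay behind each WT value and between 36 and 71 behind each KO value. Tlr12, the profilin receptor, was at 8.70, 8.49 and 7.23 FPKM in WT and at 1.45, 1.26 and 1.47 FPKM in KO, again without overlap and with a ratio of 5.84. Unc93b1 was at 301, 377 and 305 FPKM in WT and at 129, 159 and 152 FPKM in KO, which left 146.6 ± 15.8 FPKM (SD, n = 3) of the chaperone transcript.

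Tested with limma, these 3 genes fell in KO CLPs: Tlr9 by a log2 fold change of -2.59 (SE 0.157, adjusted p = 2.1e-05), Tlr12 by -1.93 (SE 0.122, adjusted p = 2.5e-05) and Unc93b1 by -1.15 (SE 0.130, adjusted p = 0.00074). They were 3 of the 5 members that passed the filter, against 2.84% of the 12339 genes tested that were called lower, and no member was called higher or had an unadjusted p under 0.05 in that direction. The 3 calls were kept when any 1 of the 6 libraries was left out. The count was again 3 after blocking on replicate number, against 3.11% of all genes. All KO libraries lay below all WT libraries for 4 of the 10 members, 3 of them among the 5 tested, where 18.6% of all tested genes showed that order. The median log2 fold change of the 5 was -1.15 and that of all genes 0.01.

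Tlr7, the receptor for single-stranded RNA, did not share this change. It was at 13.6, 7.74 and 9.19 FPKM in WT CLPs and at 8.69, 9.74 and 10.6 FPKM in KO CLPs, so the groups overlapped. The log2 fold change was -0.04 with a 95% confidence interval of -0.47 to 0.39 (limma adjusted p = 0.92), an interval that leaves out changes as large as those of Tlr9, Tlr12 and Unc93b1. Tlr2 was at 3.60, 4.20 and 3.58 FPKM in WT and 2.26, 3.80 and 3.47 FPKM in KO CLPs, with a log2 fold change of -0.22 (95% confidence interval -0.59 to 0.16, limma adjusted p = 0.43).

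Tlr3, the receptor for double-stranded RNA, was too low for the filter but showed no overlap in any population. In CLPs it was at 0.62, 0.53 and 0.50 FPKM in WT and at 0.14, 0.09 and 0.13 FPKM in KO, or 44 to 52 estimated reads against 8 to 12. In a fit without the filter its log2 fold change in CLPs was -0.47 on the log2(FPKM + 1) scale (limma adjusted p = 0.0021), a scale that understates changes of low genes, as the ratio of the mean FPKM was 4.58. In MPPs Tlr3 was at 0.21, 0.27 and 0.33 FPKM in WT and at 0.01, 0.11 and 0.08 FPKM in KO (adjusted p = 0.062, limma without the filter). The CD115- CDPs had 0.15, 0.13 and 0.25 FPKM in WT against 0.06, 0.06 and 0.08 FPKM in KO (adjusted p = 0.43, limma without the filter). At 1 to 30 estimated reads a library, neither of the latter differences could be called. Tlr13 was at 0.11, 0.28 and 0.08 FPKM in WT and 0.05, 0.12 and 0.09 FPKM in KO CLPs, which rests on 4 to 22 estimated reads and overlapped.

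The CLP libraries also differed in genes of other cell types. Of 8 pDC marker genes, all 8 were called lower in KO, and their summed FPKM was 1174 to 1272 in WT and 220 to 254 in KO. Siglech, a surface lectin of pDCs, was at 216, 145 and 146 FPKM in the WT and at 7.67 to 9.24 FPKM in the KO libraries. The conventional DC list (6 genes) summed to 60.6 to 77.3 FPKM in WT and 5.84 to 8.16 FPKM in KO with 3 genes called lower, and the monocyte and macrophage list to 255 to 337 and 66.8 to 108 FPKM, also with 3. The erythroid list (5 genes) summed to 28.7 to 48.8 FPKM in WT and 1.64 to 6.53 FPKM in KO, with 3 genes called lower. The 7 neutrophil genes summed to 332 to 912 and 202 to 359 FPKM, with 0 called without and 6 called lower with the replicate block. Called higher in KO were Rag1, of the CLP list, and Nkg7, of the T and NK list. No gene of these lists was at 0 in every library. The part of these markers in the changes of Tlr9, Tlr12 and Unc93b1 was not tested, and in bulk samples fewer cells of a type and less RNA per cell cannot be told apart.

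**Figure D2:**
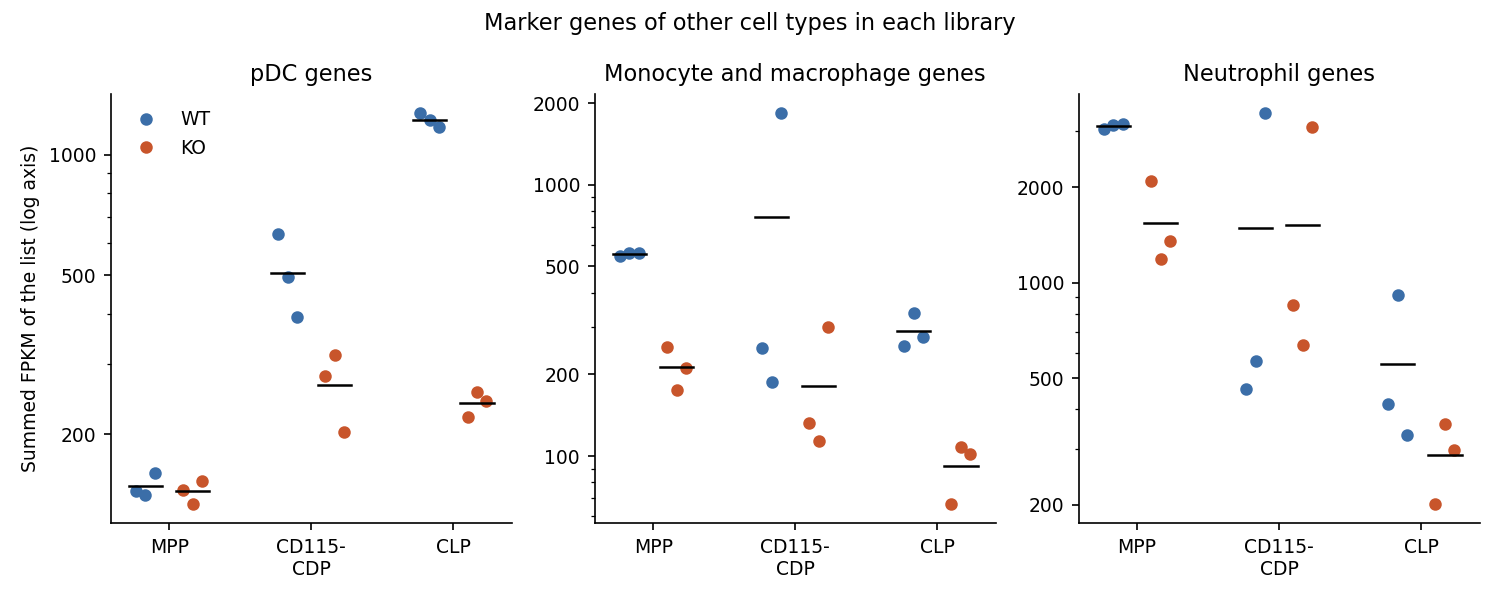
Summed FPKM of 8 pDC genes, 7 monocyte and macrophage genes and 7 neutrophil genes in each library, on log axes, with WT in blue, KO in orange and black lines for means. The pDC sum of CLPs is 1174 to 1272 FPKM in WT and 220 to 254 FPKM in KO, and in CD115- CDPs replicate 3 of both genotypes stands out with 3421 and 3081 FPKM of neutrophil genes.

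The stretches upstream of the 3 receptors whose KO libraries lay lowest against WT in CLPs are given here, as the stretches in which motifs of IRF and ETS factors were sought. RefSeq promoter windows (GRCm38) were at hand for 7 of the 10 members, in 9 windows, and the upstream bases are printed 5′ to 3′ on the strand of the gene.

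Tlr9, chr9:106222348-106222597, plus strand: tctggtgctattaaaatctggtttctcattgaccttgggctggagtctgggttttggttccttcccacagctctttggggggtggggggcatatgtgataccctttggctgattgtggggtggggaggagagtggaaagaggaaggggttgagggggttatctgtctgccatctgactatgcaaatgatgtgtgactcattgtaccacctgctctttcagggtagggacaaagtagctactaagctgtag

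Tlr12, chr4:128618620-128618869, minus strand: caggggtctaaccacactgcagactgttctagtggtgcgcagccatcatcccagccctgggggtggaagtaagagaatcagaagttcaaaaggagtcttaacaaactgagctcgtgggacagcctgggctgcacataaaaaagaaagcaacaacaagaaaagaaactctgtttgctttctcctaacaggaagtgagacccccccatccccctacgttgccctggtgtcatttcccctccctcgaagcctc

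Tlr3, chr8:45410381-45410630, minus strand: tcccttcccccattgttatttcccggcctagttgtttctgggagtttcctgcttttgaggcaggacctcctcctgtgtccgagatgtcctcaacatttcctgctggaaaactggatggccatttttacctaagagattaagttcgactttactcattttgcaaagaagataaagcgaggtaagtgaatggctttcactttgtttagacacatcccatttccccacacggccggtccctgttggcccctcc

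Tlr9, the first 30 bases from its start, motif in capitals: tgaaagtgtcACTTCCTCaattctctgaga

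Motifs were sought on both strands of each window, which reaches from 250 bases before to 50 bases after the start: the ETS-IRF composite element GGAANNGAAA, the core of the interferon-stimulated response element GAAANNGAAA and the PU.1 box GAGGAAGT. They are present in 2.72%, 3.44% and 3.2% of 32851 promoter windows. The Tlr12, Tlr3, Tlr2 and Tlr13 windows held none of the 3. Tlr9 held the PU.1 box on the opposite strand, beginning 10 bases after the first base of the transcript, printed above in capitals as it reads on the strand of the gene. One of the 2 Tlr1 windows held it too, 15 bases before the start, and 1 of the 2 Tlr6 windows held 2 overlapping matches to the interferon-stimulated core on the opposite strand. A match describes letters only, and a window without one says nothing of the factor. Irf8, which encodes a factor of pDCs and conventional DCs, was at 992 to 1132 FPKM in WT and 147 to 190 FPKM in KO CLPs (limma log2 fold change -2.72, adjusted p = 6.3e-06). Spib, which encodes an ETS factor of pDCs, was at 95.8 to 120 FPKM and 1.51 to 2.17 FPKM (log2 fold change -5.20, limma adjusted p = 5.4e-07). Spi1, which encodes PU.1, was at 60.1 to 76.2 and 60.9 to 68.5 FPKM (log2 fold change -0.11, 95% confidence interval -0.37 to 0.15).

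In CD115- CDPs the WT libraries differed more among themselves, and the call depended on the replicate number. Tlr9 was at 5.10, 5.14 and 6.86 FPKM in WT and at 2.05, 1.62 and 0.76 FPKM in KO. The groups did not overlap and the ratio of the means was 3.86. Its log2 fold change of -1.46 did not pass the limma test without a block (SE 0.256, adjusted p = 0.19), which called 0.0654% of 12229 genes lower, and passed with the replicate block (SE 0.236, adjusted p = 0.025), which called 1.46% lower. In the blocked fit without the expression filter, which tests more genes, Tlr9 did not pass (adjusted p = 0.12, limma). WT and KO libraries with the same number deviated together in this population, so the blocked values stand beside the others. This shared deviation set replicate 3 apart and hardly told numbers 1 and 2 apart. WT 1 correlated at 0.44 with KO 1 and 0.38 with KO 2, and WT 2 at 0.67 with KO 2 and 0.66 with KO 1.

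Tlr12 was at 1.79, 1.03 and 7.21 FPKM in WT and at 0.35, 0.23 and 1.27 FPKM in KO CD115- CDPs. Replicate 3 was the highest of both genotypes, the KO library of that number exceeded WT replicate 2, and within each number KO was below WT. The log2 fold change of -1.21 was called with the block (SE 0.235, adjusted p = 0.034, limma) and not without it (SE 0.543, adjusted p = 0.50), nor with the block but no expression filter (adjusted p = 0.13). Unc93b1 was at 244, 182 and 364 FPKM in WT and at 131, 124 and 160 FPKM in KO, without overlap, and its log2 fold change of -0.87 was short of the fold for a call (limma adjusted p = 0.37 without and 0.021 with the block).

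Without both libraries numbered 3, Tlr9 alone was called in CD115- CDPs, with a log2 fold change of -1.11 (SE 0.188, limma adjusted p = 0.021), and with the block it was again the 1 member called (adjusted p = 0.018). Of the 7 members tested with all 6 libraries, 0 were called lower without the block and 2 with it, and 0 were called higher either way. Without the block the limma test gave 2 of the 7, Tlr9 and Unc93b1, an unadjusted p under 0.05, both lower in KO. Of all tested genes, 5.99% had that, and no other test was run on FPKM. All KO libraries lay below all WT libraries for 4 of the 10 members, Tlr1, Tlr3, Tlr9 and Unc93b1, of which 3 were tested, beside 10.6% of all tested genes. The median log2 fold change of the 7 was -0.69 and that of all genes -0.07. Tlr1 and Tlr13 passed the filter through WT replicate 3, and without that library 5 members were tested. The median of the 7 and the count of 3, which includes Tlr1, therefore rest in part on that selection and are descriptions only. The pDC genes summed to 392 to 633 FPKM in WT and 203 to 315 FPKM in KO CD115- CDPs, with 5 of 8 genes lower in every KO library. None of the 8 was called without the block, and 4 were called lower with it: Bst2, Pacsin1, Siglech and Spib. Also with the block, 4 of 7 monocyte and macrophage genes and 2 of 6 conventional DC genes were called lower. Their part in the Tlr9 and Tlr12 values was not tested.

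Tlr7 again did not separate in CD115- CDPs, at 5.40, 9.23 and 2.76 FPKM in WT and 7.59, 6.31 and 2.15 FPKM in KO. Replicate 3 was the lowest of both genotypes, and the log2 fold change was -0.11 with a 95% confidence interval of -1.31 to 1.10 (limma adjusted p = 0.97), wide enough to hold a change of more than 1 either way. Tlr13 ranged from 0.12 to 1.61 FPKM in WT and from 0.22 to 0.51 FPKM in KO, with both extremes in WT.

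In MPPs, the earliest population, 0 of the 8 members tested with limma were called in either direction, while 1.32% of 12372 genes were called lower. Tlr4 and Tlr12, 2 of the 8, had an unadjusted p under 0.05 (limma), both lower in KO, which 19.8% of all tested genes also had. Tlr12 came nearest, at 1.58, 1.45 and 1.60 FPKM in WT and 0.38, 0.27 and 0.76 FPKM in KO, without overlap. Its log2 fold change of -0.80 (SE 0.146, limma adjusted p = 0.038) passed the test but not the fold needed, although the ratio of mean FPKM was 3.28, and rescaling each library to TPM, which sums to the same total in every library, brought it to -1.10. Tlr9, low in WT MPPs, was at 0.71, 0.79 and 0.17 FPKM in KO, so that KO 3 alone was below the WT range of 0.57 to 0.81 FPKM (log2 fold change -0.13, 95% confidence interval -0.56 to 0.30). Unc93b1 was at 77.4, 68.9 and 86.7 FPKM in KO against 83.0 to 91.2 FPKM in WT (log2 fold change -0.19, 95% confidence interval -0.44 to 0.07).

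For 5 of the 10 members in MPPs, Tlr3, Tlr4, Tlr6, Tlr7 and Tlr12, every KO library was below every WT library, 4 of them among the 8 tested, beside 23.3% of all tested genes. The median log2 fold change of the 8 was -0.20 and that of all genes -0.11. Tlr6 and Tlr12 averaged 0.477 and 0.470 FPKM in KO, under the filter of 0.5 FPKM, and passed it through their WT libraries. That selection favours lower KO values, so the count among the 8 and their median are descriptions only. Tlr7 was at 4.80, 4.71 and 5.12 FPKM in KO against 5.56 to 6.68 FPKM in WT, a log2 fold change of -0.27 (SE 0.121, limma adjusted p = 0.23). Monocyte and macrophage genes summed to 544 to 562 FPKM in WT and 175 to 253 FPKM in KO MPPs, and 5 erythroid genes to 288 to 313 and 0.8 to 8.13 FPKM. The 7 neutrophil genes summed to 3046 to 3164 and 1192 to 2089 FPKM, with 3 called lower, and the 8 B lineage genes to 49.1 to 55.4 and 15.9 to 30.8 FPKM, with 1 called lower. Their part in the values of the receptors was not tested.

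**Figure D3:**
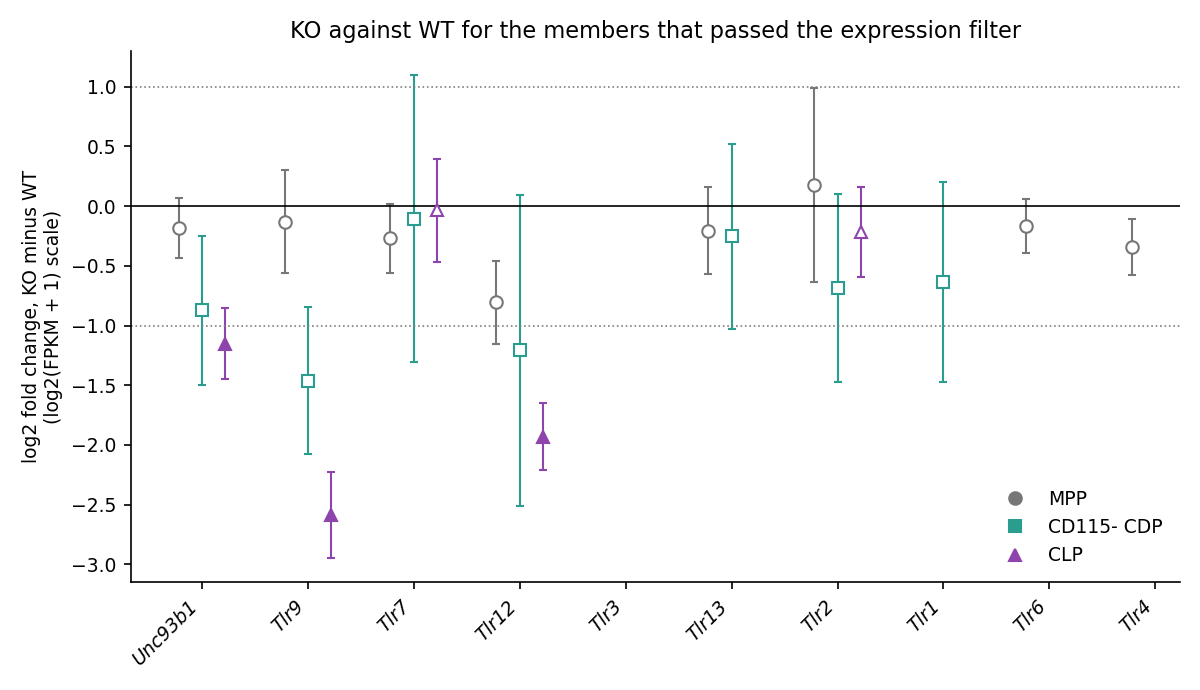
Log2 fold change of KO minus WT with its 95% confidence interval (limma, 3 against 3 libraries) for the members that passed the filter in MPPs (grey circles), CD115- CDPs (green squares) and CLPs (purple triangles). Filled symbols are called, dotted lines mark a log2 fold change of 1 in size, and only Tlr9, Tlr12 and Unc93b1 in CLPs are filled; Tlr3 was below the filter.

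The receptors of the cell surface were low apart from Tlr2, and none was called between KO and WT in any population. Tlr2 was at 11.7, 10.8 and 4.18 FPKM in KO MPPs, on both sides of the WT range of 6.55 to 7.64 FPKM (log2 fold change 0.17, 95% confidence interval -0.64 to 0.99). The WT CD115- CDPs held 20.0, 24.5 and 13.4 FPKM of it and the KO libraries 14.2, 14.1 and 7.11 FPKM, lower in KO within each number. Its log2 fold change there was -0.69 (limma adjusted p = 0.53 without and 0.028 with the block), short of the fold for a call. Tlr4, the lipopolysaccharide receptor, was at 1.04, 1.04 and 0.97 FPKM in WT and 0.58, 0.67 and 0.53 FPKM in KO MPPs, without overlap (log2 fold change -0.34, SE 0.0983, limma adjusted p = 0.11). It was below the filter in CD115- CDPs, at 0.16 to 0.46 FPKM, and in CLPs, at 0.25 to 0.40 FPKM.

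Tlr1 and Tlr6, the partners of Tlr2, are neighbours on chromosome 5 and share sequence. Of the distinct 50-base stretches of their transcripts, the length of the reads, 14.8% of those of Tlr1 and 12.6% of those of Tlr6 occur in the other gene or, for Tlr6, also in Ctsq, so reads could be divided between them and both are uncertain. Tlr6 also overlaps Fam114a1, and the counting is not stated to use strand. Tlr1 was at 0.41, 0.26 and 2.09 FPKM in WT and 0.15, 0.05 and 0.22 FPKM in KO CD115- CDPs, where the WT value of 2.09 belongs to the library with the high monocyte sum (log2 fold change -0.63, 95% confidence interval -1.47 to 0.21). In MPPs and CLPs it lay between 0.07 and 0.30 FPKM. Tlr6 was at 0.74, 0.63 and 0.60 FPKM in WT and 0.48, 0.48 and 0.47 FPKM in KO MPPs (log2 fold change -0.16, SE 0.0948, limma adjusted p = 0.31) and between 0.21 and 0.56 FPKM in the other populations.

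Whether the effect of KO differed between populations was tested with limma as an interaction over all 18 libraries, for the 9 members above the filter in any population. Tlr9 was the 1 member that passed (adjusted p = 0.00052), where 3.07% of 12978 genes did. Its log2 fold change was 1.33 lower in CD115- CDPs than in MPPs, 2.46 lower in CLPs than in MPPs and 1.13 lower in CLPs than in CD115- CDPs (log2 differences -1.33, -2.46 and -1.13, SE 0.297 each). The WT means of Tlr9 lay in the same order (0.677, 5.70 and 9.82 FPKM), while KO Tlr9 lay between 0.17 and 2.05 FPKM in all 9 KO libraries. On the log2(FPKM + 1) scale a lower WT level leaves less room for a fall, so the size of these differences also depends on that level. Unc93b1 did not pass (adjusted p = 0.14), but did with the replicate block (adjusted p = 0.012, limma), and Tlr12 did not (adjusted p = 0.44). Without CD115- CDP WT replicate 3 Unc93b1 and Tlr12 passed as well (limma adjusted p = 0.025 and 0.027), and without CD115- CDP WT replicate 2 Unc93b1 did (adjusted p = 0.035).

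The rest of the pathway was read from 3 lists. Of the other family members, Tlr5, which binds flagellin, Tlr8, a relative of Tlr7, and Tlr11, a profilin receptor like Tlr12, none passed the filter in any population. Tlr8 was at 0.32, 0.40 and 0.27 FPKM in WT and 0.09, 0.05 and 0.08 FPKM in KO MPPs, and at 0.93 FPKM in CD115- CDP WT replicate 3 against 0.00 to 0.08 FPKM in the other 5 libraries of that population. Tlr5 was at 0.18, 0.18 and 0.17 FPKM in WT and 0.07, 0.03 and 0.07 FPKM in KO CLPs. Tlr11 was listed at 0 in all KO libraries, and at 0.19 FPKM or less in WT.

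Accessory, chaperone and endosomal genes numbered 20, of which 19 passed the filter in each population. In CLPs 5 were called lower, beside 2.84% of all genes, and in MPPs 2, beside 1.32%. In CD115- CDPs 0 were called without the replicate block, beside 0.0654%, and 2 with it, beside 1.46%. None was called higher. An unadjusted p under 0.05 (limma) with a lower KO level was reached by 13 of the 19 in CLPs, 4 in CD115- CDPs and 4 in MPPs, where 16.2%, 5.99% and 19.8% of all genes reached it, and with a higher KO level by 1, Lgmn in MPPs. The median log2 fold change of the 19 was -0.49 in CLPs, -0.29 in CD115- CDPs and -0.08 in MPPs, where all genes had 0.01, -0.07 and -0.11. Pld4, an endolysosomal exonuclease that degrades single-stranded DNA, was at 196, 201 and 170 FPKM in WT and 14.2, 21.7 and 25.0 FPKM in KO CLPs (log2 fold change -3.19, SE 0.202, limma adjusted p = 1.8e-05). It also fell in MPPs, from 17.3, 16.5 and 16.1 FPKM to 6.27, 4.49 and 4.76 FPKM (log2 fold change -1.52, limma adjusted p = 0.0046). The CD115- CDP libraries held Pld4 at 83.4, 54.1 and 156 FPKM in WT and at 18.5, 13.8 and 17.2 FPKM in KO (log2 fold change -2.37, limma adjusted p = 0.14 without and 0.0065 with the block).

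Ly86, the partner of the TLR4-like receptor CD180, was lower in the same 3 comparisons, called in MPPs (log2 fold change -1.45, limma adjusted p = 0.017) and CLPs (-1.24, adjusted p = 0.00026) and, with the block, in CD115- CDPs (-1.11, adjusted p = 0.019, against 0.40 without). The cathepsins that cut endosomal receptors into their active form fell in CLPs, Ctsl from 37.4 ± 3.44 to 9.13 ± 1.82 FPKM (SD, n = 3) and Ctss from 95.9 ± 4.51 to 44.2 ± 7.58 FPKM. Slc15a3, a lysosomal transporter, fell from 10.7 ± 0.133 to 2.52 ± 0.304 FPKM there. Ctsl and Slc15a3 were not called in the other populations, at log2 fold changes of 0.12 and 0.13 in MPPs and -0.18 and -0.38 in CD115- CDPs. In the test of the difference between populations described above, Ctsl passed (limma adjusted p = 0.032), and Slc15a3 (0.061), Pld4 (0.082), Ctss (0.41) and Ly86 (0.82) did not.

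The signalling list held 31 genes, of which 30 passed the filter in each population. In CLPs 3 were called lower, in MPPs 0, and in CD115- CDPs 0 without and 1 with the block, against the same shares of all genes as above. None was called higher. An unadjusted p under 0.05 (limma) with a lower KO level was reached by 7 genes in MPPs, 4 genes in CD115- CDPs and 7 genes in CLPs, again read against 19.8%, 5.99% and 16.2% of all genes, and with a higher KO level by 2, Sigirr and Ticam2 in CLPs. The medians of the 30 were -0.09 in CLPs, -0.22 in CD115- CDPs and -0.05 in MPPs. Irf7, the factor that induces type I interferon genes downstream of TLR7 and TLR9, fell from 36.0 ± 4.06 to 15.3 ± 2.45 FPKM in CLPs (SD, n = 3). In MPPs it was at 29.6 ± 3.15 and 15.5 ± 1.64 FPKM, without overlap, a log2 fold change of -0.90 (limma adjusted p = 0.019) that was short of the fold for a call. Irf5, which acts beside it, went from 29.9 ± 1.67 to 13.2 ± 2.19 FPKM in CLPs (called lower), and with the block was also called in CD115- CDPs at a log2 fold change of -1.15 (limma adjusted p = 0.039, against 0.35 without). Pik3ap1, an adaptor that links the receptors to phosphoinositide kinase, fell in CLPs, from 68.0 ± 10.7 to 24.5 ± 2.39 FPKM, while KO MPPs had 17.1 to 68.4 FPKM, around the WT range of 19.0 to 30.2 FPKM. None of the 3 passed the test of a difference between populations (limma adjusted p = 0.21 for Pik3ap1, 0.58 for Irf7 and 0.79 for Irf5). In CLPs the pDC, conventional DC, monocyte and macrophage, and erythroid sums given above were lower in KO as well, and their part was not tested.

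**Figure D4:**
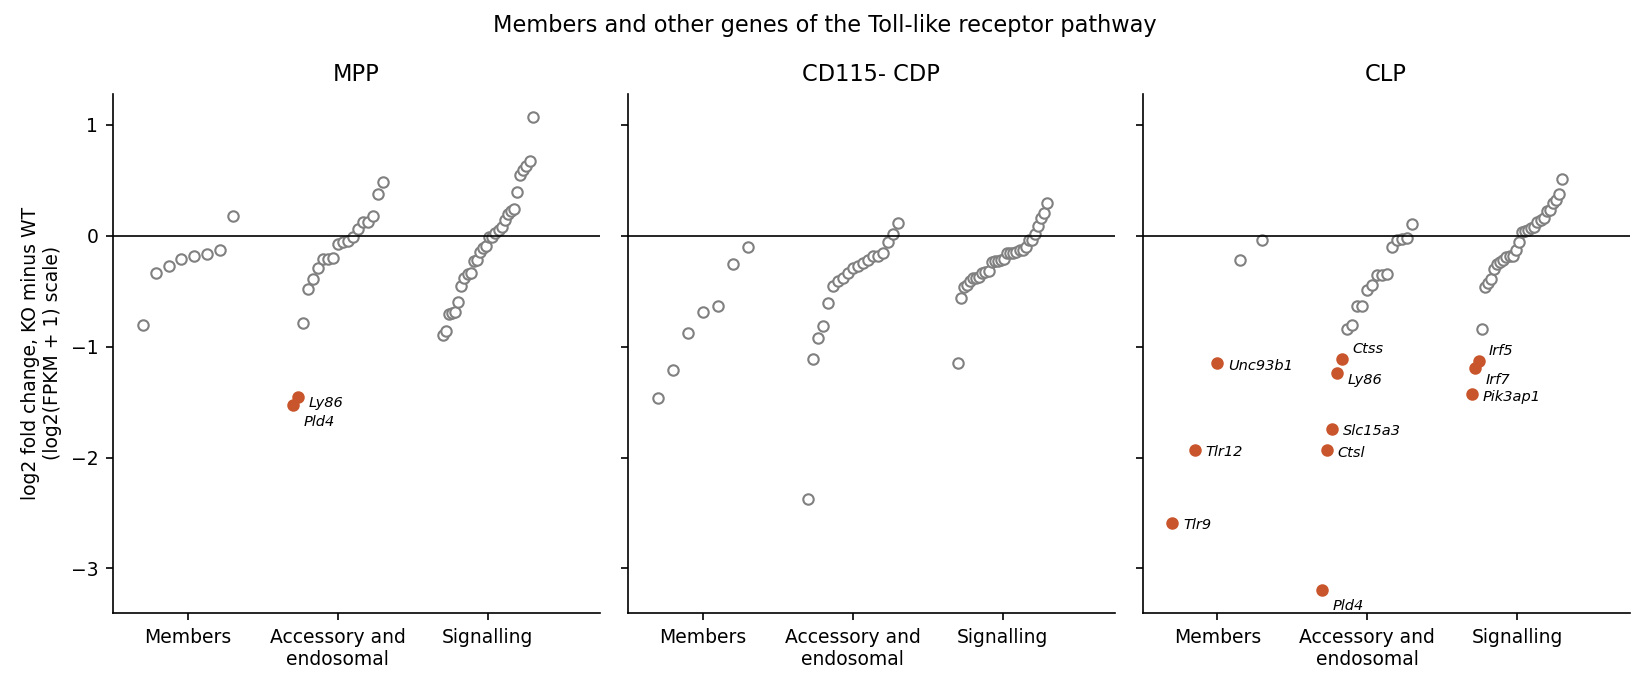
Log2 fold change of KO minus WT (limma on log2(FPKM + 1)) for the members, the accessory and endosomal genes and the signalling genes that passed the filter, in each population. Orange points with names are called lower without the replicate block: 2 of the MPP panel, 0 of the CD115- CDP panel and 11 of the CLP panel.

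Across the 18 libraries, the 5 members with a mean of at least 0.5 FPKM in every population were compared with 11667 genes by Pearson's r of log2(FPKM + 1). These correlations are descriptions: the points share population, genotype and table, so genes with a like order over those groups will correlate. Tlr9 was most like Cd300c, an immunoglobulin-like receptor of leukocytes (r = 0.976), Scpep1, a carboxypeptidase (0.968) and Eepd1 (0.963). Unc93b1 was most like Ctss (0.970), Kmo, an enzyme of tryptophan breakdown (0.970) and Amica1, an adhesion molecule (0.962). Tlr12 was most like Limd1 (0.971), Glcci1 (0.963) and Cdkn2c, an inhibitor of cell cycle kinases (0.961). The nearest genes of Tlr2 were Tnfaip2 (0.947), S1pr2, a sphingosine phosphate receptor (0.938) and Lilrb4a, an inhibitory receptor (0.930), and those of Tlr7 were H2-Ob, a chain of the class II antigen-processing molecule H2-O (0.924), Sla2 (0.899) and Ahdc1 (0.898). Among the members, r was 0.886 for Tlr9 and Unc93b1, 0.829 for Tlr12 and Unc93b1 and 0.780 for Tlr9 and Tlr12. It was 0.281 for Tlr9 and Tlr7, the other receptor of pDCs, and 0.192 for Tlr7 and Unc93b1.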

How the data were processed

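Gene-level FPKM values were used as deposited. Per the labels and methods, the authors sequenced poly-A selected RNA as single-end reads of 50 bases, and FPKM came from Bowtie2 2.2.5 and RSEM 1.2.12 (HISAT2 2.0.4 is also named in the submitters' processing notes). Reads were not used here, and fold changes or tests by the authors were not used. Members and lists were chosen with earlier results of these data known. Named genes were the 10 members, genes of the 3 pathway lists called in any population with or without the block, Trim33, Irf8, Spi1 and Spib, and the 3 genes most alike each member.

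FPKM were tested as log2(FPKM + 1) with limma 3.58.1 (R 4.3.3, lmFit, eBayes with trend), keeping genes that averaged 0.5 FPKM or more, and Benjamini-Hochberg adjustment over all genes tested. The fits were checked on simulated data. Estimated reads are FPKM times effective length of the longest transcript times estimated depth. Precision rests on 3 libraries a group.

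Same-numbered WT and KO libraries deviated from their group means with correlations of 0.44, 0.67 and 0.79 in CD115- CDPs and 0.40, 0.33 and 0.13 in CLPs, over 0.1 in each pair, and are given with a replicate block where it changes a call. The pairing comes from the label numbers. Some pairs of unlike number correlated about as high: WT 1 with KO 2 at 0.38 and WT 2 with KO 1 at 0.66 in CD115- CDPs, and WT 3 with KO 2 at 0.23 in CLPs. Same-numbered WT MPP and WT CD115- CDP libraries correlated at 0.15, 0.36 and 0.38. Alternatives were another pseudocount, other filters, median ratio scaling, TPM, the block, eBayes without trend and leaving out each library. Leaving out both CD115- CDP libraries numbered 3, and the block without the expression filter, were added after the data were seen.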

Additional observations from a re-analysis of the deposited data

Results flagged for a closer look

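The effect of KO on Tlr9 differed between MPPs, CD115- CDPs and CLPs in the test of the difference itself (interaction, limma adjusted p = 0.0005166), with log2 fold changes of -0.13, -1.46 and -2.59. On the log2(FPKM + 1) scale a low WT level leaves little room for a fall, and WT Tlr9 averaged 0.677 FPKM in MPPs against 9.82 FPKM in CLPs. KO was below WT in every library of CD115- CDPs and CLPs, and in MPPs 1 of 3 KO libraries was below the WT range. The pDC marker sum moved in the same populations (1174 to 1272 against 220 to 254 FPKM in CLPs, 392 to 633 against 203 to 315 FPKM in CD115- CDPs and 140 to 160 against 134 to 152 FPKM in MPPs), and its part was not tested. Each population is a table of its own, so table and population cannot be told apart.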

How the results depend on the processing

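The 3 calls in KO CLPs remained under every alternative run except a filter at a mean of 5 FPKM, which Tlr12 did not pass and which left 2. The 3 calls in WT CD115- CDPs against MPPs and the 3 in WT CLPs against MPPs remained 3 except with a pseudocount of 0.1, where Tlr4 joined as the 4th in each (-1.42). No member was called higher in KO under any. In MPPs the count of 0 became 1, Tlr12, with no minimum fold change (log2 fold change -0.80) or after rescaling to TPM (-1.10). The replicate block left MPPs at 0; there the numbers pair no samples by the rule used, since same-numbered libraries correlated at 0.04, 0.48 and 0.47. In CD115- CDPs the count of 0 became 2 with the replicate block 1 without replicate 3, with or without the block, and stayed 0 with the block but no expression filter. The block changed no other call of a member between genotypes, and left the counts between WT populations at 3, 3 and 1. The interaction count of 1 became 2 with the replicate block and 2 with median ratio scaling, Unc93b1 joining in both (adjusted p = 0.012 and 0.033), and 1 to 3 with 1 library left out. The count between WT CLPs and CD115- CDPs was 1 to 2 with 1 library left out. Median ratio scaling moved the median of all genes in MPPs from -0.11 to -0.00439 and rescaling to TPM that of CD115- CDPs from -0.07 to -0.19. Of the uncalled members, some changed sign as single libraries were left out. Between KO and WT the log2 fold change ranged from -0.059 to 0.587 for Tlr2 in MPPs, from -0.243 to 0.0639 for Tlr9 in MPPs, from -0.474 to 0.338 for Tlr7 in CD115- CDPs and from -0.198 to 0.174 for Tlr7 in CLPs. In WT CD115- CDPs against MPPs it ranged from -0.531 to 0.191 for Tlr7, from -0.0953 to 0.913 for Tlr12 and from -0.275 to 0.031 for Tlr13. In WT CLPs against CD115- CDPs it ranged from -0.116 to 0.0497 for Tlr4, which was at 0.0227 after rescaling to TPM. The cause was not tested for any of these. Depth limits Tlr1, Tlr3, Tlr4, Tlr6 and Tlr13 and, in MPPs, Tlr9, which rested on few reads (12 to 58 for Tlr9 in MPPs).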

Other observations

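Of the genes that the endosomal receptors need, 5 that were not called are given here for CLPs, chosen after their values were seen, and 3 of them passed the test without the fold used for a call. In the full lists, called genes included, 10 of the 19 accessory and 7 of the 30 signalling genes had a limma adjusted p of at most 0.05 and a lower KO level. None had it with a higher KO level, and the share of all genes at that threshold is not given here. Cnpy3, a folding chaperone of several Toll-like receptors, averaged 80.1 ± 6.86 FPKM in the WT and 51.4 ± 3.93 FPKM in the KO libraries (SD, n = 3, log2 fold change -0.63, limma adjusted p = 0.0054). Slc15a4, a lysosomal transporter on which TLR7 and TLR9 signalling in pDCs depends, was at 31.0 ± 4.71 and 16.8 ± 0.289 FPKM (log2 fold change -0.84, limma adjusted p = 0.0026). Hsp90b1, the endoplasmic reticulum chaperone that works with CNPY3, was at 240.3 ± 42.1 and 185.8 ± 3.19 FPKM (log2 fold change -0.36, 95% confidence interval -0.65 to -0.06, limma adjusted p = 0.11). Myd88, the adaptor of all the receptors named except TLR3, was at 25.6 ± 2.51 and 19.2 ± 0.722 FPKM (log2 fold change -0.39, limma adjusted p = 0.042), and Ticam1, the adaptor of TLR3, at 6.62 ± 1.08 and 5.14 ± 0.335 FPKM (log2 fold change -0.30, 95% confidence interval -0.61 to 0.01). Other genes of the same lists lay near 0 in CLPs, among them Ap3b1 (log2 fold change -0.04), Pld3 (-0.02), Dnase2a (0.11), Cnpy4 (-0.03) and Traf6 (0.08).

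The surface receptor Tlr2 and the adaptor Pik3ap1 in MPPs had KO libraries on both sides of the WT range, with KO replicate 3 the lowest for both. Tlr2 was at 11.7, 10.8 and 4.18 FPKM and Pik3ap1 at 51.6, 68.4 and 17.1 FPKM in KO MPPs. The same KO library was the highest of the KO MPPs for Irf8 (50.4 against 18.4 and 17.8 FPKM) and Tlr12 (0.76 against 0.38 and 0.27 FPKM), and the lowest for Tlr9 (0.17 against 0.71 and 0.79 FPKM).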
